A study of Mus musculus with 24 samples.

Results

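The genes described here are 10 Krüppel-like factors of mouse bone marrow–derived macrophages (BMDM), *Klf2*, *Klf3*, *Klf4*, *Klf6*, *Klf7*, *Klf9*, *Klf10*, *Klf11*, *Klf13* and *Klf16*. They were chosen by name, with earlier results of these data known, and matched by symbol to 10 of the 56884 genes in the count table. All 10 passed the filter on low counts that left 13679 genes for testing. RNA was sequenced from BMDM of 4 wild-type C57BL/6J female mice aged 9 weeks, numbered 1, 2, 4 and 5, with 1 library per mouse and condition and 6 conditions (24 libraries). BMDM are macrophages grown from bone marrow cells with the growth factor M-CSF. Naive cells received no cytokine. The other 5 groups received IL-4 and IL-13 for 24 hours, each at 20 ng/ml, and 4 of these 5 also received inhibitors from 1 hour before the cytokines onward. The inhibitors were tunicamycin at 5 µg/ml, which blocks N-linked glycosylation in the endoplasmic reticulum, Sal003 at 10 µM, which inhibits the dephosphorylation of the translation factor eIF2α, and the ATP synthase blocker oligomycin at 1 µM. The oligomycin libraries form a pair of groups, and 1 of them also received ISRIB at 1 µM, which counteracts phosphorylated eIF2α. Titles and library names conflict on which group that is, so the groups are called oligomycin set A, whose titles name ISRIB, and oligomycin set B, whose library names do, and neither is read here as the group with ISRIB.

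Krüppel-like factors bind GC boxes and CACCC boxes in DNA through zinc fingers at the C-terminus, and their N-termini recruit either coactivators or corepressors. *Klf2*, *Klf4*, *Klf6* and *Klf7* are mostly known as activators, *Klf3* recruits the corepressor CtBP, and *Klf9*, *Klf10*, *Klf11*, *Klf13* and *Klf16* recruit the corepressor Sin3A. In macrophages *Klf4* is known as a gene induced by IL-4 through STAT6, *Klf2* is known to restrain inflammatory genes, and *Klf6* is known to act with NF-κB.

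Gene counts summed to 16238727 to 26725278 per library, with a median of 18999998. Levels are given as CPM, counts scaled to a library of 1000000 reads after TMM normalization. Naive mouse 2 stood apart from the other naive libraries, with a chi-square per gene of 27.65 to 36.27 against them, compared with 6.08 to 8.03 among the other 3. Oligomycin set B was uneven too, at 6.01 for mice 1 and 4 and 3.21 for mice 2 and 5, but 12.87 to 18.9 between these pairs. With Sal003 the value was 22.04 for mice 4 and 5. All 8 macrophage markers checked passed the filter, and the 6 lymphocyte markers summed to at most 1.23 CPM in any library. Of 5 genes used to check the stress response 4 were tested (*Atf4*, *Trib3*, *Asns* and *Chac1*), and *Ddit3* was left out because its symbol matched 2 gene entries. All 4 were at least 2.5-fold higher than with IL-4/IL-13 alone with tunicamycin and in both oligomycin sets, and 3 of them with Sal003. In bulk RNA, fewer cells of a type and less RNA per cell cannot be told apart.

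*Klf4*, *Klf2* and *Klf9* moved over a much wider range than the other 7 genes. The span from the lowest to the highest group mean was 4.11 log2 units for *Klf4*, 3.91 for *Klf2* and 3.81 for *Klf9*, each above at least 94.9% of the tested genes, whose median span was 0.96. *Klf11* spanned 2.03 and *Klf7* 1.38, and the remaining 5 spanned 0.39 (*Klf13*) to 1.1 (*Klf3*). Scaled by the length of the main transcript and averaged over all libraries, the level was highest for *Klf6* at 80.9 CPM per kilobase, followed by *Klf4* at 55, and lowest for *Klf7* at 2.25. Of the 7 protein-coding Krüppel-like factor genes outside the 10, *Klf8* alone passed the filter, with group means of 7.62 to 11.7 CPM, and the other 6 had at most 13 counts in any library.

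**Figure D1:**
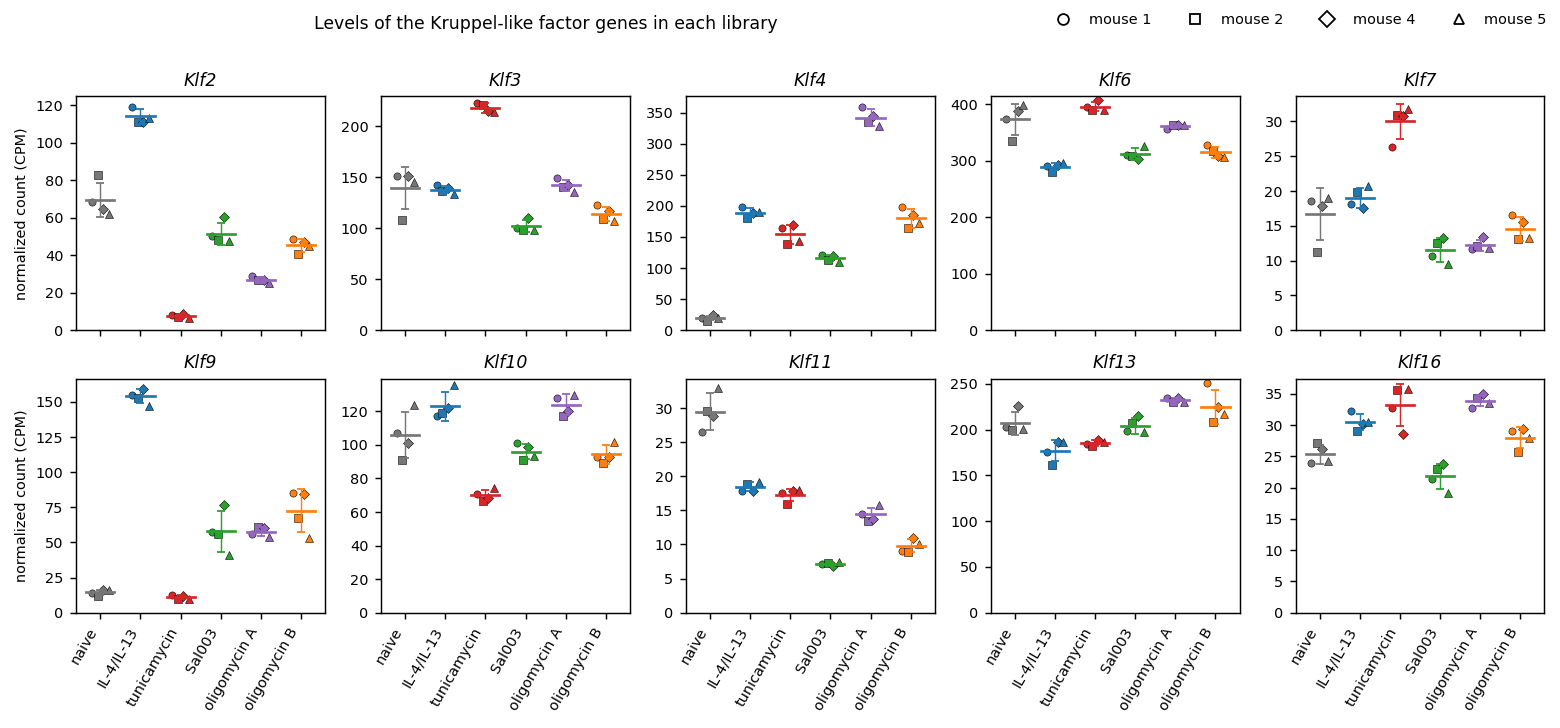
Normalized counts (CPM, linear axes from 0) of the 10 genes in each of the 24 libraries, by condition. Symbols mark the mouse, horizontal lines the mean and error bars the SD of 4 mice. *Klf4* was highest in oligomycin set A (342 CPM) and lowest in naive cells (19.9 CPM), whereas *Klf2* and *Klf9* were highest with IL-4/IL-13 alone and lowest with tunicamycin.

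Which members responded to the cytokines, and which of those responses differed when an inhibitor was present, was tested with edgeR's quasi-likelihood test and Benjamini-Hochberg adjustment over all tested genes. The 4 inhibitor comparisons share the 4 IL-4/IL-13 libraries as controls. With IL-4/IL-13, 8 of the 10 genes differed from naive cells at an adjusted *P* under 0.05 (5 higher and 3 lower), against 60.5% of all tested genes (30.1% higher and 30.4% lower). *Klf4* and *Klf9* also passed 2.5-fold, against 11.5% of all genes. With tunicamycin, 7 differed from IL-4/IL-13 alone (3 higher and 4 lower), against 76.3% of all genes (38.7% higher and 37.6% lower), and *Klf2* and *Klf9* passed 2.5-fold, against 22.6% of all genes in either direction. With Sal003 all 10 differed (2 higher and 8 lower), against 50.6% (25.9% higher and 24.6% lower). *Klf9* and *Klf11* passed 2.5-fold there, against 7.71%, and *Klf9* did so only with mouse 5 in the comparison (log2 fold change -1.3 without it, leaving 1 gene). In oligomycin set A 8 differed (4 higher and 4 lower), against 66.2% (34% higher and 32.2% lower), and *Klf2* and *Klf9* passed 2.5-fold, against 12.7%. In oligomycin set B 8 differed (2 higher and 6 lower), against 54.3% (27.9% higher and 26.4% lower). *Klf2* lay at 2.5-fold there, against 7.96% of genes past that fold, and no gene passed it without mouse 2 or with the mouse as a block. Among these calls, *Klf6* with Sal003 and *Klf16* in set A were lost in 9 of 10 alternative analyses each, and *Klf6* in set B in 5. *Klf10* with the cytokines was lost in 2 and *Klf7* in set B in 1. Because a large share of all genes was called in each comparison, the sizes of the changes are given gene by gene. The median log2 fold change of the 10 genes was 0.2 with IL-4/IL-13 (all genes -0.02), -0.01 with tunicamycin (0.01), -0.6 with Sal003 (0), -0.33 in set B (0) and 0.02 in set A (0.01).

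**Figure D2:**
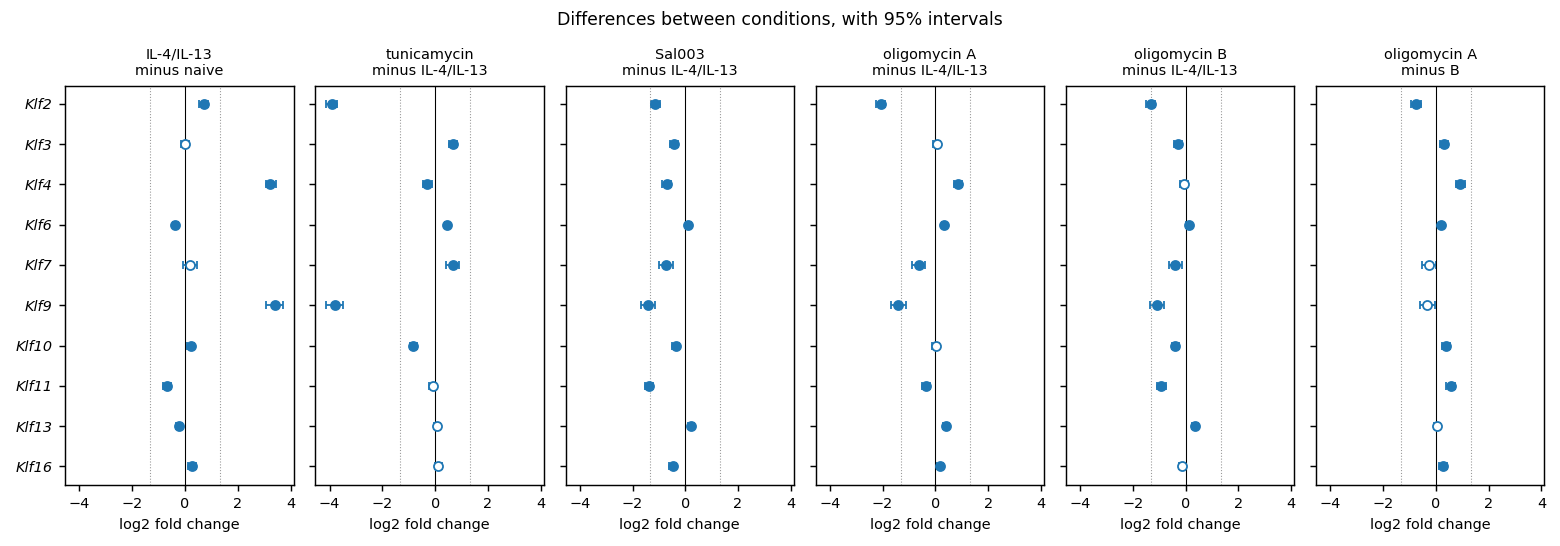
Log2 fold changes of the 10 genes in 6 comparisons, with 95% confidence intervals computed from edgeR's fold changes and test statistics. Filled points have an adjusted *P* under 0.05, open points do not, and dotted lines mark 2.5-fold. The intervals of *Klf4* lie above 0 with the cytokines (3.06 to 3.43) and in oligomycin set A (0.69 to 1.02), and span 0 in set B (-0.23 to 0.09).

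*Klf4* (ENSMUSG00000003032) lies on the minus strand of chromosome 4 of GRCm39 from 55527139 to 55532528, with 5 exons in its main transcript. Its naive levels were 19.8, 15.6, 24.1 and 20.2 CPM in mice 1, 2, 4 and 5. With IL-4/IL-13 they were 198, 180, 189 and 190 CPM. Every mouse rose, the groups did not overlap, and the log2 fold change was 3.24 (SE 0.09, adjusted *P* = 7e-20), a 9.47-fold rise. With tunicamycin the levels were 165, 139, 169 and 144 CPM, all below the lowest IL-4/IL-13 library, and the fold change was small (log2 -0.29, SE 0.08, adjusted *P* = 0.0017). With Sal003 they were 121, 113, 120 and 110 CPM, lower again (log2 -0.71, SE 0.08, adjusted *P* = 5.2e-08). Oligomycin set A held the highest *Klf4* levels of the study, at 359, 335, 345 and 329 CPM, each above every library of the other 5 groups. The log2 fold change over IL-4/IL-13 alone was 0.86 (SE 0.08, adjusted *P* = 6.5e-10), or 1.81-fold. Set B stood at 198, 165, 186 and 172 CPM, which overlapped the IL-4/IL-13 libraries, and its difference of -0.07 did not pass the test (SE 0.08, adjusted *P* = 0.47). In order of the mean, set A (342) was followed by IL-4/IL-13 (189), set B (180), tunicamycin (154), Sal003 (116) and naive cells (19.9), and among these neighbours only IL-4/IL-13 and set B did not pass the test. Set B and tunicamycin passed it (log2 0.22, SE 0.08, adjusted *P* = 0.014), although their libraries overlapped.

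The gap between naive and IL-4/IL-13 cells of the same mouse was used to express how much of the cytokine-induced rise of *Klf4* was present with each inhibitor. It was 79.4% ± 6.67 with tunicamycin (SD, n = 4), 56.7% ± 2.51 with Sal003, 94.6% ± 5.38 in set B and 190% ± 5.64 in set A. The lowest value in any mouse under any inhibitor was 53.2%, so most of the rise of *Klf4* was present throughout. Of the *Klf4* transcript, 11.6% is near-identical to the long noncoding RNA genes *Gm48923* and *Gm71760*, so reads from that stretch are uncertain.

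Stretches before the RefSeq starts of *Klf4* and *Klf2* are printed because the levels of these 2 genes changed by different amounts with the inhibitors, and to show the GC boxes that their own family binds. The sequences are from the RefSeq promoter table (GRCm38.p6, 250 bases before to 50 after the start), and were placed on GRCm39 by exact match. The printed parts run 5′ to 3′ on the gene's strand, with positions counted from the RefSeq start. In both genes that start lies inside the GENCODE gene, so the first pair of stretches ends where the GENCODE gene begins, and the last stretch lies within the GENCODE gene of *Klf2*, after its GENCODE start. Capitals mark GC boxes (GGGCGG on either strand) in the first pair of sequences and a MEF2 motif in the last.
Klf4, chr4:55532529-55532725, minus strand: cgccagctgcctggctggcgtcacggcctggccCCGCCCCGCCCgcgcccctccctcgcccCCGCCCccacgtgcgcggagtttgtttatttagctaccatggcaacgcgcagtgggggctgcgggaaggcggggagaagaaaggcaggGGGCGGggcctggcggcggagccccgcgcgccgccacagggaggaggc
Klf2, chr8:73072656-73072725, plus strand: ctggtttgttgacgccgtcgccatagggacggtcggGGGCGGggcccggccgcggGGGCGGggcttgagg
Klf2, chr8:73072778-73072807, plus strand: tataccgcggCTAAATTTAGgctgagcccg

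The *Klf4* stretch holds 4 GC boxes, a pair of which overlap by 1 base, and the first *Klf2* stretch holds 2. Entries were found for 8 of the 10 genes, and *Klf10* and *Klf16* have none. The GC box occurred in 7 of these 8 promoters and in 35.7% of all 32851 promoters of the same length, with *Klf9* as the gene without it. The CACCC box (CCACCC on either strand) occurred in *Klf2*, *Klf3*, *Klf7* and *Klf13*, against 31.5% of all. The GC content was 74.3% for *Klf4*, 69.3% for *Klf2* and 63.3% for *Klf9*, against a median of 52.7%. The MEF2 motif, which binds factors downstream of the kinase ERK5 that are known to drive *Klf2*, was found in *Klf2* alone at positions -118 to -109 and in 3.19% of all promoters. Neither the C/EBP-ATF element (TGATGNAA, 3.97% of all) nor the STAT6 site (TTC and GAA with 4 bases between them, 6.95%) had these letters in any of the 8 windows. The same held for TGACGTCA (1.79%), the endoplasmic reticulum stress element (CCAAT and CCACG with 9 bases between them, 0.119%), the CArG motif (1.63%) and TATAAA (13.6%). A motif match describes the letters only.

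*Klf9* (ENSMUSG00000033863, chromosome 19, 23118187 to 23148497, plus strand) encodes a repressor induced by glucocorticoid and thyroid hormones in many tissues. It rose with the cytokines about as much as *Klf4*. Its naive levels were 14.2, 12.1, 15.8 and 16 CPM in mice 1, 2, 4 and 5, and its levels with IL-4/IL-13 were 155, 153, 159 and 147 CPM. The groups did not overlap (log2 fold change 3.4, SE 0.15, adjusted *P* = 1e-15, 10.6-fold). With tunicamycin *Klf9* stood at 12.3, 9.52, 12 and 9.93 CPM, below every IL-4/IL-13 library (log2 -3.81, SE 0.16, adjusted *P* = 5.4e-17) and slightly below naive cells on average (log2 difference 0.41, SE 0.17, adjusted *P* = 0.035, against 77.6% of all genes called between these 2 groups). Levels with Sal003 were 57.7, 55.7, 76.7 and 41.1 CPM. Set A held 56.2, 60.7, 60.1 and 54 CPM, and set B held 85, 67.4, 84.6 and 53.2 CPM. All libraries of these 3 groups lay between the naive and the IL-4/IL-13 libraries, with log2 fold changes of -1.41 (SE 0.14, adjusted *P* = 3.7e-09), -1.41 (SE 0.14, adjusted *P* = 1.5e-09) and -1.09 (SE 0.13, adjusted *P* = 2e-07). Neighbours among Sal003, set A and set B in the order of means did not pass the test. Mouse 5 was the lowest of the 4 in each of these groups and in the IL-4/IL-13 group. Of the cytokine-induced rise, -2.6% ± 1.45 remained with tunicamycin (SD, n = 4), 30.9% ± 9.52 with Sal003, 41.5% ± 10 in set B and 31.1% ± 2.43 in set A. On the opposite strand, 4.053% of the exon bases of *Klf9* overlap the noncoding gene *Gm56648*, and since no source used here says whether counting used strand, reads there cannot be told apart.

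*Klf2* (ENSMUSG00000055148, chromosome 8, 73072726 to 73075502, plus strand) keeps lymphocytes and endothelium quiescent. It was already well counted in naive cells, at 68.1, 82.6, 64.6 and 62.1 CPM, and rose to 119, 111, 111 and 113 CPM with IL-4/IL-13. The rise was 1.64-fold (log2 0.71, SE 0.08, adjusted *P* = 3.4e-08), and 0.82 on the log2 scale without mouse 2. With tunicamycin *Klf2* dropped to 8.27, 6.85, 8.39 and 6.52 CPM, below every library of the other 5 groups. That was 15.1-fold below IL-4/IL-13 alone (log2 -3.92, SE 0.10, adjusted *P* = 2.7e-21). With Sal003 the levels were 50, 48, 60.2 and 47.6 CPM (log2 -1.14, SE 0.08, adjusted *P* = 2.1e-11). Set A held 28.8, 26.7, 26.8 and 25.2 CPM (log2 -2.08, SE 0.09, adjusted *P* = 1.5e-16), and set B 48.8, 40.7, 47 and 45 CPM (log2 -1.32, SE 0.08, adjusted *P* = 1.3e-12). All 4 inhibitor groups thus lay below naive cells as well as below IL-4/IL-13 alone, and in the order of means only the neighbours Sal003 and set B did not pass the test (adjusted *P* = 0.15, against 18.5% of all genes called between them).

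*Klf4* was set against *Klf9* and *Klf2* within each library, as the difference of their log2 CPM. These pairs were chosen after the levels had been seen, so the values restate those levels and are given as a description, with no test. They are not scaled by length, and only their differences between groups are read. The log2 *Klf4*/*Klf9* value was 0.45 ± 0.12 in naive cells (SD, n = 4) and 0.30 ± 0.07 with IL-4/IL-13, and these groups overlapped. It was 3.81 ± 0.05 with tunicamycin, 1.04 ± 0.32 with Sal003, 1.33 ± 0.25 in set B and 2.57 ± 0.09 in set A. The lowest value in these 4 groups, 0.64 with Sal003, lay above the highest with IL-4/IL-13, 0.36. The log2 *Klf4*/*Klf2* value was -1.8 ± 0.42 in naive cells and 0.74 ± 0.03 with IL-4/IL-13. It was 4.34 ± 0.07 with tunicamycin, 1.18 ± 0.13 with Sal003, 1.99 ± 0.04 in set B and 3.67 ± 0.03 in set A. The cytokine-treated groups ranked alike by mean for both values, with IL-4/IL-13 alone lowest, followed by Sal003, set B, set A and tunicamycin. For *Klf4*/*Klf9*, Sal003 (0.64 to 1.42) and set B (1.13 to 1.69) overlapped.

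**Figure D3:**
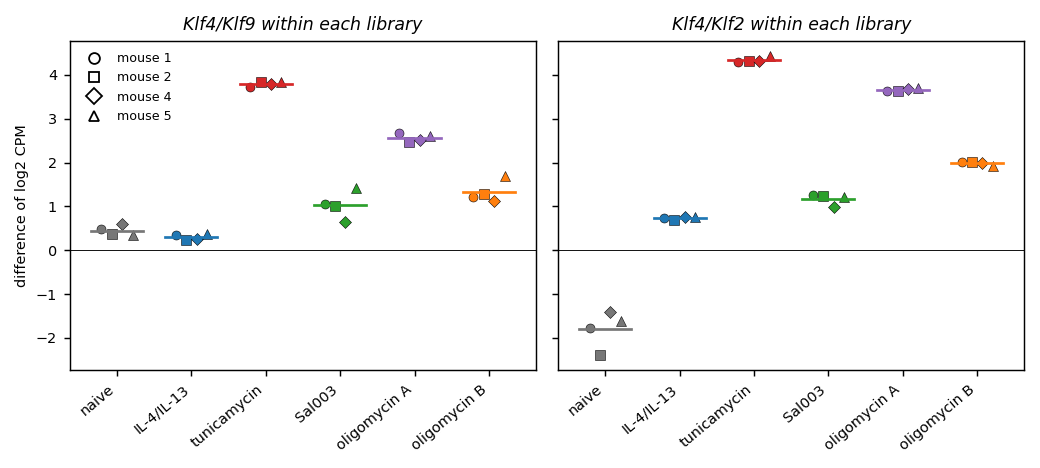
Difference of the log2 CPM of *Klf4* and *Klf9* (left) and of *Klf4* and *Klf2* (right) within each of the 24 libraries, by condition, with symbols for the mouse and lines for the mean of 4 mice. Tunicamycin libraries lie highest in both panels (means 3.81 and 4.34), and IL-4/IL-13 libraries (0.30 and 0.74) lie below those of every inhibitor group.

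Of the other activators, *Klf6* (ENSMUSG00000000078, chromosome 13) was the most strongly expressed and moved little. Its means ± SD were 374 ± 27.6 CPM in naive cells, 290 ± 6.65 with IL-4/IL-13, 396 ± 7.88 with tunicamycin, 312 ± 10.4 with Sal003, 315 ± 9.36 in set B and 362 ± 3.81 in set A (n = 4 each). Its mean was lowest with IL-4/IL-13 alone, the reverse of *Klf2* and *Klf9*. It fell with the cytokines (log2 -0.37, SE 0.04, adjusted *P* = 7.3e-08) and was higher than with the cytokines alone in tunicamycin (0.45, SE 0.04, adjusted *P* = 1.1e-09) and set A (0.32, SE 0.04, adjusted *P* = 5.5e-07). Its differences with Sal003 (0.11, adjusted *P* = 0.048) and in set B (0.12, adjusted *P* = 0.024) were lost in 9 and 5 of 10 alternative analyses. *Klf7* (ENSMUSG00000025959, chromosome 1), the gene nearest to *Klf6* in the family and known from neurons, was low, at 16.7 ± 3.67 CPM in naive cells and 19 ± 1.45 with IL-4/IL-13. That difference did not pass the test (log2 0.19, adjusted *P* = 0.2, and 0.02 without mouse 2, adjusted *P* = 0.87). *Klf7* rose to 30 ± 2.46 CPM with tunicamycin (log2 0.66, SE 0.12, adjusted *P* = 2.2e-05). It fell to 11.5 ± 1.71 CPM with Sal003 (log2 -0.72, SE 0.13, adjusted *P* = 3.8e-05), to 12.2 ± 0.764 in set A (-0.64, SE 0.13, adjusted *P* = 9e-05) and to 14.6 ± 1.74 in set B (-0.39, SE 0.12, adjusted *P* = 0.011, lost without mouse 5 at 0.078).

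*Klf3* (ENSMUSG00000029178, chromosome 5), the CtBP-binding repressor of the 10, did not pass the test with the cytokines. Its levels were 151, 108, 151 and 145 CPM in naive mice 1, 2, 4 and 5 and 142, 137, 139 and 134 CPM with IL-4/IL-13 (log2 -0.01, interval -0.16 to 0.14, adjusted *P* = 0.92, and -0.11 without mouse 2, adjusted *P* = 0.092). With tunicamycin it stood at 223, 221, 215 and 214 CPM, above every library of the other 5 groups (log2 0.66, SE 0.07, adjusted *P* = 8e-09). By group mean *Klf3*, like *Klf7*, was highest with tunicamycin and lowest with Sal003, where it held 102 ± 5.82 CPM (log2 -0.44, SE 0.07, adjusted *P* = 1.6e-05). Set A, at 142 ± 5.39 CPM, overlapped IL-4/IL-13 alone (log2 0.04, adjusted *P* = 0.66), and set B was lower at 114 ± 7.31 CPM (-0.28, SE 0.07, adjusted *P* = 0.0022). Over the 24 libraries, which share 6 conditions and 4 mice, *Klf3* and *Klf7* had the highest Pearson correlation of log2 CPM among the 10 genes (r = 0.86), and *Klf6* and *Klf9* the lowest (r = -0.85). Of the *Klf3* transcript 8.2% is near-identical to the antisense noncoding gene *Gm20033*, so these reads are uncertain.

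*Klf10* and *Klf11* encode the TGF-β–inducible early repressors, and both were lower with Sal003 and in set B, but they differed with tunicamycin and in set A. *Klf11* (ENSMUSG00000020653, chromosome 12) was highest in naive cells, at 26.5, 29.6, 28.8 and 33 CPM, and fell to 17.9, 18.9, 17.9 and 19.2 CPM with IL-4/IL-13 (log2 -0.67, SE 0.07, adjusted *P* = 5.6e-09). With Sal003 it dropped further to 7.06, 7.27, 6.85 and 7.36 CPM, the lowest of all groups (log2 -1.37, SE 0.08, adjusted *P* = 2.9e-13), and in set B to 9.78 ± 0.956 CPM (-0.92, SE 0.07, adjusted *P* = 1.6e-10). With tunicamycin it stayed at 17.3 ± 0.895 CPM, a difference of -0.09 from IL-4/IL-13 alone (interval -0.24 to 0.05, adjusted *P* = 0.24), and set A lay between, at 14.4 ± 1 CPM (-0.36, SE 0.07, adjusted *P* = 0.00011). *Klf10* (ENSMUSG00000037465, chromosome 15) had its lowest level, 70 ± 3.26 CPM, with tunicamycin (log2 -0.82 from 123 ± 8.46 CPM with IL-4/IL-13, SE 0.07, adjusted *P* = 1.2e-10). It was 96 ± 4.56 CPM with Sal003 (-0.36, SE 0.07, adjusted *P* = 0.00012) and 94.3 ± 5.39 CPM in set B (-0.39, SE 0.07, adjusted *P* = 4.5e-05), and did not pass the test in set A at 124 ± 6.35 CPM (0.01, interval -0.14 to 0.15). Its rise with the cytokines from 106 ± 13.7 CPM was small (log2 0.22, SE 0.07, adjusted *P* = 0.0082) and was lost without mouse 4 (0.061). Compared directly, *Klf11* was higher with tunicamycin than with Sal003 (log2 1.28, SE 0.08, adjusted *P* = 1.7e-13) and *Klf10* lower (-0.46, SE 0.07, adjusted *P* = 2.9e-06), with no overlap of the libraries for either gene (71.9% of all genes were called there).

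*Klf13* and *Klf16*, which share the Sin3A-binding repressor type with *Klf9*, moved little. *Klf13* (ENSMUSG00000052040, chromosome 7), known from T cells as an activator of *Ccl5*, had group means of 177 CPM with IL-4/IL-13 to 232 CPM in set A. It fell with the cytokines (log2 -0.23, SE 0.05, adjusted *P* = 0.00088), and was higher than with the cytokines alone in set A (0.39, SE 0.05, adjusted *P* = 6.9e-07), set B (0.35, SE 0.05, adjusted *P* = 6.6e-06) and Sal003 (0.20, SE 0.05, adjusted *P* = 0.0029). *Klf16* (ENSMUSG00000035397, chromosome 10) had group means of 21.8 CPM with Sal003 to 33.9 CPM in set A. It rose with the cytokines (0.27, SE 0.07, adjusted *P* = 0.0019) and fell with Sal003 (-0.48, SE 0.07, adjusted *P* = 3e-06). Its difference in set A (0.16, adjusted *P* = 0.049) was lost in 9 of 10 alternative analyses. With tunicamycin neither gene passed the test (0.07 for *Klf13* and 0.12 for *Klf16*).

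The oligomycin sets, which by the labels differ in ISRIB, were compared with each other. Of the 10 genes 7 differed, 6 higher and 1 lower in set A, against 41.2% of all tested genes (19.9% higher and 21.3% lower), and no member passed 2.5-fold, against 2.62%. *Klf4* was 1.9-fold higher in set A (log2 0.93, SE 0.08, adjusted *P* = 7.9e-10) and *Klf11* 1.47-fold higher (0.56, SE 0.08, adjusted *P* = 1.6e-06). *Klf10* (0.39), *Klf3* (0.32), *Klf16* (0.27) and *Klf6* (0.20) were higher too, and *Klf2* was lower in set A (-0.75, SE 0.09, adjusted *P* = 1.4e-07). *Klf9* did not pass the test (-0.33, interval -0.61 to -0.04, adjusted *P* = 0.06), but did with the mouse as a block (-0.31, adjusted *P* = 0.018), and neither did *Klf7* (-0.25, adjusted *P* = 0.12) or *Klf13* (0.04, adjusted *P* = 0.56). Of the stress genes, *Trib3* (log2 1.89, adjusted *P* = 1.1e-15), *Atf4* (0.56, adjusted *P* = 7.2e-07) and *Chac1* (0.42, adjusted *P* = 0.00024) were higher in set A, and *Asns* did not pass the test (0.15, adjusted *P* = 0.15). These values were not used to assign ISRIB to a set.

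Genes known to act around these factors were counted from lists chosen by their roles, with earlier results of these data known. The ERK5-MEF2 pathway drives *Klf2* and *Klf4* in endothelium, and of its 6 listed genes 5 were tested. With IL-4/IL-13 none was higher and 4 were lower, against 30.1% and 30.4% of all genes. With tunicamycin 1 was higher and 1 lower (38.7% and 37.6% of all genes), and with Sal003 2 and 1 (25.9% and 24.6%). The counts were 3 and 1 in set A (34% and 32.2%) and 4 and 1 in set B (27.9% and 26.4%). The pair called with tunicamycin were *Mapk7*, which encodes ERK5 itself, from 36.1 ± 1.76 to 130 ± 3.06 CPM (log2 1.84, SE 0.05, adjusted *P* = 4e-20), and *Mef2c*, from 77.6 ± 4.13 to 23.3 ± 0.785 CPM (-1.74, SE 0.08, adjusted *P* = 1.4e-16). Of the 5 ubiquitin ligases known to degrade *Klf2* or *Klf4* protein, 2 were higher and 1 lower with IL-4/IL-13 (30.1% and 30.4% of all genes). The lower one was *Wwp1*, which fell from 708 ± 88.1 to 142 ± 8.36 CPM (-2.31, SE 0.07, adjusted *P* = 4.5e-19), and none of the 5 passed 2.5-fold with any inhibitor. Of the 7 corepressor genes, *Ctbp1*, *Ctbp2*, *Sin3a*, *Sin3b* and 3 histone deacetylases, none passed 2.5-fold in any comparison with IL-4/IL-13.

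Of the 7 macrophage genes linked to *Klf4* and STAT6, 6 were higher and 1 lower with IL-4/IL-13, against 30.1% and 30.4% of all genes. The lower one was *Stat6* itself, which held 331 ± 18.8 CPM in naive cells, 306 ± 8.03 with IL-4/IL-13 and 216 ± 5.18 with tunicamycin. The median log2 fold change of the 7 was 1.69 (all genes -0.02). With tunicamycin all 7 were lower, against 37.6% of all genes, and 5 of them passed 2.5-fold (median -3.02, all genes 0.01). *Klf4* was lower too, but by less (log2 -0.29), and 79.4% of its rise was present. *Retnla*, a secreted marker of IL-4–treated macrophages, held 7750 ± 406 CPM with IL-4/IL-13 and at most 1 count in any tunicamycin library. *Chil3*, a chitinase-like protein, held 3560 ± 375 CPM with IL-4/IL-13 and 1.73 ± 0.741 CPM with tunicamycin. In set A, where *Klf4* was highest, 5 of the 7 were lower and none higher than with IL-4/IL-13 alone (32.2% and 34% of all genes). There *Retnla* stood at 49.6 ± 11.5 CPM, *Chil3* at 1370 ± 206 CPM and *Arg1*, the arginase gene, at 148 ± 30.2 CPM, compared with 455 ± 33.2 CPM with IL-4/IL-13 alone. *Mrc1*, the mannose receptor gene, held 634 ± 74 CPM with IL-4/IL-13, 78.2 ± 5.19 CPM with tunicamycin and 685 ± 64.8 CPM in set A. Of the 7 genes 5 were lower and 2 higher with Sal003 (24.6% and 25.9% of all genes). In set B 4 were lower and none higher (26.4% and 27.9%). There *Retnla* held 280 ± 105 CPM, *Chil3* 2230 ± 687 CPM and *Arg1* 295 ± 38 CPM.

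Of the 5 genes linked to *Klf2* in endothelium and lymphocytes, 4 were tested. All 4 were lower with IL-4/IL-13, against 30.4% of all genes, while *Klf2* was higher. *S1pr1*, a sphingosine 1-phosphate receptor that *Klf2* is known to activate in lymphocytes, held 84.7 ± 4.53 CPM in naive cells and 18.2 ± 0.35 with IL-4/IL-13. Its levels were 87.9 ± 5.2 CPM with tunicamycin, 30 ± 1.79 with Sal003, 46.1 ± 5.56 in set B and 78.6 ± 2.37 in set A. *Itgb7*, an integrin gene whose expression in lymphocytes is known to need *Klf2*, stood at 11.7 ± 1.78 CPM with IL-4/IL-13, 60.9 ± 8.3 with Sal003, 33.3 ± 4.51 in set B, 57.8 ± 8.06 in set A and 9.86 ± 0.973 CPM with tunicamycin, where *Klf2* was lowest. It held 29.3 ± 2.88 CPM in naive cells. The list for the glucocorticoid response held 6 genes, the receptor gene *Nr3c1* and 5 genes known to be inducible, as *Klf9* is. Of these 1 was higher and 3 lower with IL-4/IL-13, against 30.1% and 30.4% of all genes. The higher one was *Fkbp5*, a cochaperone of the glucocorticoid receptor, which rose from 6.84 ± 0.484 to 44.3 ± 2.32 CPM (2.7, SE 0.11, adjusted *P* = 2.8e-16). It was 9.87 ± 0.846 CPM with tunicamycin, 14.2 ± 2.15 with Sal003, 14.4 ± 2.99 in set B and 12.8 ± 0.506 in set A. The list did not move as 1: with tunicamycin 1 of the 6 was higher and 4 lower than with IL-4/IL-13 alone (38.7% and 37.6% of all genes). The counts were 2 and 2 with Sal003 (25.9% and 24.6%), 3 and 2 in set A (34% and 32.2%) and 2 and 2 in set B (27.9% and 26.4%). Of 8 genes of the TGF-β pathway, 5 were lower and 1 higher with IL-4/IL-13 (30.4% and 30.1% of all genes). *Smad3*, a signal transducer of the pathway, fell from 27.2 ± 2.46 to 7.05 ± 0.917 CPM (-1.95, SE 0.13, adjusted *P* = 1.9e-12).

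The genes most like each of the 3 wide-ranging members were sought among 6556 tested genes outside the family whose group means spanned at least 1 log2 unit. Likeness was the Pearson correlation of log2 CPM over the 24 libraries, which share conditions and mice, and is given as a description. For *Klf4* they were *Ptgir*, the prostacyclin receptor gene (r = 0.99), the noncoding RNA *Gm38575* (r = 0.98) and *Cldnd1* (r = 0.98). For *Klf9* they were *Car5b*, a mitochondrial carbonic anhydrase (r = 0.99), *Il27ra*, a receptor subunit for IL-27 (r = 0.99), and *Retnla* (r = 0.98). For *Klf2* they were *H2-Aa*, an MHC class II chain, *Trf*, transferrin, and *Ldhb*, a lactate dehydrogenase subunit (r = 0.99 each). The naive mean of *Gm38575* was -3.27 log2 CPM, the value of a gene with 0 counts. *Retnla* lay near that floor in naive cells (-2.55) and with tunicamycin (-3.14), so both r values rest in part on groups almost without counts.

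Markers of other cells also moved with the conditions. The summed level of 6 neutrophil and progenitor markers was 28.9 to 49.5 CPM in naive libraries, 17.4 to 31.4 with IL-4/IL-13, 0.103 to 0.255 with tunicamycin, 3.5 to 5.97 with Sal003, 11.4 to 15.7 in set B and 1.51 to 2.93 in set A. That of 6 endothelial and fibroblast markers was 21.6 to 82.2 CPM in naive libraries, 7.71 to 43.4 with IL-4/IL-13 and 4.23 to 35.8 with the inhibitors. Markers of dendritic cells summed to at most 9.1 CPM and of erythroid cells to at most 1.82 CPM. The sum of the 8 macrophage markers was 31100 to 36900 CPM in naive libraries, 11800 to 14200 with IL-4/IL-13, 16600 to 18200 with tunicamycin, 14200 to 15900 with Sal003, 13900 to 15700 in set B and 9120 to 9930 in set A. The sum hides markers that moved apart. With tunicamycin 4 of the 8 were higher and 3 lower than with IL-4/IL-13 alone (38.7% and 37.6% of all genes). *Csf1r*, the M-CSF receptor gene, fell from 3730 ± 358 to 821 ± 48.5 CPM while *Adgre1*, the gene of F4/80, rose from 977 ± 101 to 6680 ± 537 CPM (both named after their values were seen). With IL-4/IL-13 none was higher and 7 were lower than in naive cells (30.1% and 30.4% of all genes). The part of these shifts in the levels of the 10 genes was not tested.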

How the data were processed

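Read counts of 24 libraries from 4 mice and 6 conditions were analysed. Per the authors, reads were trimmed (Cutadapt), cleared of ribosomal and low-complexity sequence, aligned to GRCm39 (STAR) and assigned to genes (htseq-count), and the deposited counts carry no normalization. The strand setting is not given in the sources used here. Totals that belong to no gene (12.7% to 15.2% of reads) were left out. The deposited TPM table was not used, because its header does not match its columns. Here counts were tested with edgeR 4.0.16 in R 4.3.3 (TMM, filterByExpr, quasi-likelihood, 1 model with all groups, Benjamini-Hochberg adjustment over 13679 genes), after the script was tested on simulated data. The median biological coefficient of variation was 7.43%. Log2 CPM used a prior count of 2. Near-identity was at least 95% over at least 100 bases (blastn 2.17.0). Genes other than the 10 were named where they passed 2.5-fold in a comparison with IL-4/IL-13 (up to 4 a list). *Stat6* was named besides, as a member of its list. Members and lists were chosen with earlier results of these data known. Equal library numbers mark 1 mouse per the labels, and the deviations of such libraries from group means correlated (median r 0.24 over 60 pairs, 56 above 0.1, against -0.05 for different mice). The mouse as a block was an alternative, beside DESeq2 1.42.0, upper-quartile scaling, other filters, only the groups compared, and leaving out each mouse. The SEs and intervals of the fold changes were computed from edgeR's fold changes and test statistics. These intervals cover counting error and the spread between mice.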

Additional observations from a re-analysis of the deposited data

Results flagged for a closer look

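In 60 groups of 4 libraries (10 genes in 6 conditions), 5 held a library far from the other 3, where chance gives about 1 in 20 groups. Naive mouse 2 was low for *Klf3* (108 CPM, others 145 to 151) and for *Klf7* (11.2 CPM, others 17.9 to 19), and this library also stood apart from the other naive libraries over all genes. *Klf13* was high in naive mouse 4 (226 CPM, others 199 to 203) and *Klf3* was high in Sal003 mouse 4 (110 CPM, others 98.2 to 99.8). *Klf6* in oligomycin set A was low in mouse 1 (357 CPM, others 364), a small gap in a tight group. The causes were not tested.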

How the results depend on the processing

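The 60 values of the 10 genes in 6 comparisons were recomputed under 10 alternatives each, 600 values in all. Of these 567 kept their side of the threshold, 26 lost the call, 7 gained one and 0 of the called values changed direction. For 51 of the 60 no alternative changed the call. The 9 that did included *Klf6* with Sal003 (main adjusted *P* = 0.048, 0.039 to 0.2 over the alternatives), *Klf16* in set A (0.049, 0.0073 to 0.16), *Klf6* in set B (0.024, 0.018 to 0.24), *Klf10* with the cytokines (0.0082, 4e-04 to 0.064) and *Klf9* between the oligomycin sets (0.06, 0.0077 to 0.38), all from edgeR or DESeq2. Leaving out each mouse in turn, the count of genes past 2.5-fold was 1 to 2 with Sal003 (1 without mouse 5) and 0 to 1 in set B (0 without mouse 2). With the mouse as a replicate block that count in set B was 0, *Klf2* lying at the threshold, *Klf16* in set A was lost (0.16, adjusted *P* = 0.056) and *Klf9* between the sets was called (-0.31, adjusted *P* = 0.018). The block changed no other call. No alternative moved the median of all genes by 0.1 log2 units. At 16238727 reads or more per library every member had at least 121 counts in each library, the fewest for *Klf11* with Sal003 (121) and *Klf2* with tunicamycin (128), where counting error weighs most.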
